A study of Mus musculus with 6 samples.

Results

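Leukocytes that enter a tissue can be followed in bulk RNA by genes used as their markers. The genes described here were 9 such markers, taken by gene symbol from the deposited tables of 51826 genes: Ptprc (the leukocyte tyrosine phosphatase CD45), Cd3e, Cd4 and Cd8a (T cells), Ms4a1 (CD20 of B cells), S100a8 and S100a9 (calprotectin of neutrophils), and Ly6c2 and Lyz2 (monocytes and other myeloid cells). All 9 genes were found, each as a single row. The libraries were bulk poly(A) RNA of cortex from male mice aged 6 to 8 weeks, labelled BALB/c, collected on day 3 after whole-brain X-ray irradiation with a single dose of 10 Gy. Of the 6 libraries, 3 came from Lgmn+/+ mice (Lgmn+/+-IR) and 3 from Lgmn-/- mice (Lgmn-/--IR), so that all mice were irradiated and each difference is between genotypes. Lgmn encodes asparagine endopeptidase (AEP), a lysosomal protease. The Lgmn-/- line goes back to a targeted embryonic stem cell clone with a floxed Lgmn allele, recombined by Flp and Cre. The Cre driver, the strain of the stem cells and whether the brains were perfused are not given in the sources used here.

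In a healthy brain the parenchyma holds microglia, which are themselves CD45-positive at a low level, while macrophages and a few lymphocytes sit in the meninges, perivascular spaces and choroid plexus. Recruited cells enter after endothelial selectins slow them and integrins arrest them on the vessel wall. T cells are defined by the CD3 chains around the antigen receptor, B cells by CD20 and CD79, and neutrophils by granule proteins and Ly6G, whereas inflammatory monocytes carry a high level of Ly6C together with the chemokine receptor CCR2. Several of the genes described here are also transcribed by microglia, endothelium or neurons.

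Total counts were between 41874462 and 46829441 per library. A count of 3, used as the limit that a count of 0 allows, corresponded to between 0.0646 and 0.0703 CPM (read counts scaled to library size with edgeR's TMM factors) in the single libraries. Lgmn was lower in each Lgmn-/--IR library than in any Lgmn+/+-IR library, with 5558, 5528 and 5775 counts against 3703, 3269 and 4109 (log2 fold change -0.64, SE, or standard error, 0.12, adjusted p = 0.0315 in edgeR, above 0.05 without any 1 of the Lgmn+/+-IR libraries or without Lgmn-/--IR replicate 1, up to 0.131). Cortical genes were abundant in all 6 libraries, such as Snap25 and Slc17a7 of neurons, with mean values of 1349 and 371 FPKM (fragments scaled to transcript length and library size). The libraries differed in other tissue genes. Lgmn-/--IR replicate 1 stood apart with 5303 counts for 5 olfactory bulb genes, a list chosen after values were seen, against 303 to 1216 in the other libraries. Striatal genes and hemoglobin genes also varied, and their values are given below, beside Cd4 and beside the calprotectin genes.

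Of the 9 markers, 4 had enough counts for the test across all genes (Ptprc, Cd4, Ly6c2 and Lyz2), and 1 of them, Ly6c2, was a differentially expressed gene (DEG, Benjamini-Hochberg adjusted p under 0.05 in edgeR's quasi-likelihood test and absolute log2 fold change over 1). Across all 18345 genes tested, 2.06% were DEGs. The lymphocyte markers Cd3e and Ms4a1 had no count in any library and Cd8a had 2 counts in a single one. S100a8 and S100a9 were concentrated in Lgmn-/--IR replicate 1. In bulk RNA fewer cells of a type and less RNA per cell cannot be told apart.

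**Figure D1:**
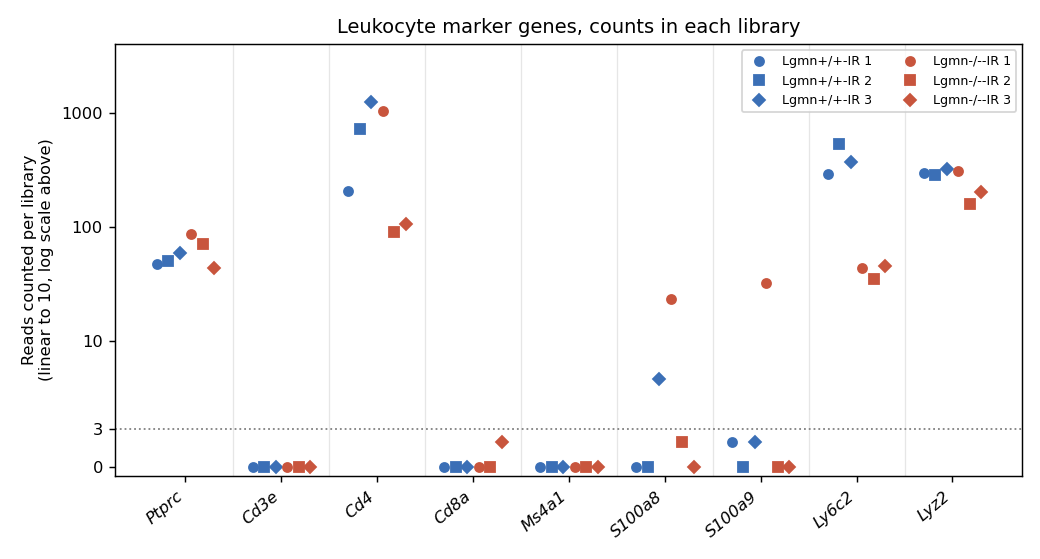
Reads counted on each of the 9 marker genes (y axis, linear up to 10 counts and logarithmic above) in the 3 Lgmn+/+-IR libraries (blue) and the 3 Lgmn-/--IR libraries (red), 1 point per library and 1 symbol shape per replicate number. The dotted line marks 3 counts, Ly6c2 is separated by genotype (287 to 529 against 35 to 45 counts), and Cd3e and Ms4a1 lie at 0 in all 6 libraries.

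Ly6c2 encodes a small glycolipid-anchored surface protein recognized by antibodies to Ly6C, which mark inflammatory monocytes but also bind endothelium and some T cells. The gene lies on chromosome 15 of GRCm38 (75108158 to 75111970, minus strand), within a cluster of related Ly6 genes that includes its near-identical copy Ly6c1 (75044018 to 75048830, minus strand). The coding sequences of Ly6c2 and Ly6c1 in the GENCODE annotation are 393 bases long each and differ at 9 positions (97.7% identity). The first 150 coding bases of both are shown, 5′ to 3′, because the counts of Ly6c2 rest on telling them apart. Capitals mark the 6 positions at which the copies differ in this stretch.
Ly6c2: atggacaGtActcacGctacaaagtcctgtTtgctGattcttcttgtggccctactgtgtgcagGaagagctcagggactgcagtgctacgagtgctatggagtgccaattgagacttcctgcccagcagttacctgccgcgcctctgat
Ly6c1: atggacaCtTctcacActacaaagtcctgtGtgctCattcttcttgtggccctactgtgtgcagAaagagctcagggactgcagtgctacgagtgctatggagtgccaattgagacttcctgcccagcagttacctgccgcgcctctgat

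Of all stretches of 50 bases in the reference transcript of Ly6c2, 33.0% also occur in another gene, mostly in Ly6c1. The reference genome is of C57BL/6J origin and the mice are labelled BALB/c, and differences of these mice from the reference sequence were not tested. Which program made the raw counts, and how it treated reads that match both copies, are not given in the sources used here. The values of Ly6c2 and Ly6c1 are therefore uncertain as single genes, and their sum is given beside them.

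Ly6c2 had 287, 529 and 371 counts among Lgmn+/+-IR mice against 43, 35 and 45 counts in the Lgmn-/--IR libraries. Every Lgmn-/--IR library lay below every Lgmn+/+-IR library, with no overlap. The means were 9.08 ± 2.92 and 0.916 ± 0.143 CPM (SD, n = 3 each), 9.91-fold lower in Lgmn-/--IR. The log2 fold change was -3.31 (SE 0.28, adjusted p = 0.00152 in edgeR).

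Ly6c1, transcribed in brain endothelium, had 796, 1152 and 601 counts among Lgmn+/+-IR mice against 1207, 1201 and 1595 in Lgmn-/--IR. All 3 Lgmn-/--IR libraries had more counts than any Lgmn+/+-IR library, but after scaling to library size the groups overlapped, and the difference did not pass the test (log2 fold change 0.60, SE 0.26, adjusted p = 0.277). The sum of both copies, an alternative chosen after seeing the data, was 1083, 1681 and 972 counts among Lgmn+/+-IR mice against 1250, 1236 and 1640 in Lgmn-/--IR. Taken as 1 gene the copies were not a DEG, and the sign turned (28.7 ± 9.38 against 30.7 ± 5.82 CPM, SD, n = 3 each, log2 fold change 0.10, adjusted p = 0.858 in edgeR).

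The share of Ly6c2 within the pair did not overlap between genotypes. Ly6c2 took 26.5%, 31.5% and 38.2% of the counts of both copies in the Lgmn+/+-IR libraries, where the exact 95% binomial intervals together spanned 23.9% to 41.3%. It took 3.44%, 2.83% and 2.74% in the Lgmn-/--IR libraries, with intervals from 1.98% to 4.61%. The intervals cover counting error only. Whether the assignment of reads between the copies contributed to this share was not tested.

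**Figure D2:**
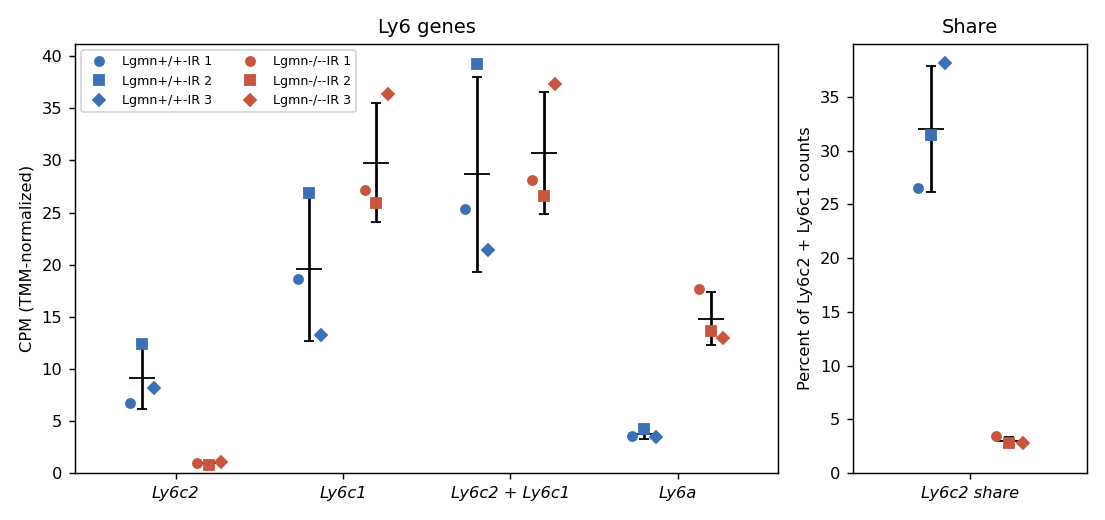
CPM of Ly6c2, of Ly6c1, of the sum of both and of Ly6a (left), and the percentage of the summed Ly6c2 and Ly6c1 counts that fell on Ly6c2 (right), in each library (points, blue for Lgmn+/+-IR and red for Lgmn-/--IR), with the mean and SD of each genotype in black (n = 3). Ly6c2 is low and Ly6a high in Lgmn-/--IR without overlap, while the sum of the Ly6c genes overlaps between genotypes (28.7 ± 9.38 against 30.7 ± 5.82 CPM).

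Other genes of the family also differed. Of 11 Ly6 genes listed, 7 were tested, of which 2 were higher and 1, Ly6c2 itself, was lower in Lgmn-/--IR as DEGs. Over all genes tested, 2.06% were DEGs. Ly6a, which encodes stem cell antigen 1 and is located on chromosome 15 from 74994877 to 74998031, had 150, 182 and 155 counts among Lgmn+/+-IR mice against 786, 634 and 570 in Lgmn-/--IR. The groups were far apart, and the log2 fold change of Ly6a was 1.99 (SE 0.17, adjusted p = 0.00175 in edgeR). Ly6g6e was higher with a log2 fold change of 1.05 (adjusted p = 0.0373 by the same test, above 0.05 with any 1 library left out and up to 0.137). Ly6h and Ly6e, the most abundant members, had log2 fold changes of 0.38 and 0.34 and did not pass the test. Ly6g, the defining neutrophil surface gene, had no count. Within 500 kb on either side of Ly6c2, 11 genes were tested, Ly6c2 included, and 2 were DEGs. These were Ly6c2, on which the window is centred, and Ly6a, with opposite directions.

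Of 13 genes on the monocyte list, 6 were tested and Ly6c2 was the single DEG. The list median was -0.19 on the log2 scale, against -0.01 over all genes tested. Ccr2, the receptor that brings inflammatory monocytes out of the marrow, had 8, 2 and 8 counts among Lgmn+/+-IR mice against 4, 2 and 1 in Lgmn-/--IR. Chil3, strongly transcribed in Ly6C-high monocytes, had no count in any library. Itgal, the integrin chain CD11a, named after its values were seen, had 0, 16 and 10 counts among Lgmn+/+-IR mice against 45, 43 and 58 in Lgmn-/--IR, without overlap, and did not pass the test (log2 fold change 2.44, SE 0.77, adjusted p = 0.156). Nr4a1, needed by patrolling monocytes and also an immediate early gene of neurons, had a mean of 69.3 FPKM and a log2 fold change of -0.17 (adjusted p = 0.734).

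Lyz2 encodes lysozyme M, an enzyme of monocytes, macrophages and neutrophils that microglia also transcribe. It lies on chromosome 10 (117277331 to 117282321, minus strand) beside its copy Lyz1 (117287797 to 117292868, minus strand). The coding sequences, 444 bases each, differ at 22 positions, and 15.4% of the stretches of 50 bases in the transcript of Lyz2 also occur in Lyz1. Coding bases 7 to 156 of both are shown because this stretch holds 15 of the differences, in capitals.
Lyz2: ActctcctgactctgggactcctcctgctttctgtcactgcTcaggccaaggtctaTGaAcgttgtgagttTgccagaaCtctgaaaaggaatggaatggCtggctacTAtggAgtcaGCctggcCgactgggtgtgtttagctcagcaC
Lyz1: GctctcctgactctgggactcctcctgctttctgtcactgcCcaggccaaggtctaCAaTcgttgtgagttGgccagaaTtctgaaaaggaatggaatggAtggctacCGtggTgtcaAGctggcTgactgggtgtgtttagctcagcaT

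Lyz2 had 298, 284 and 323 counts among Lgmn+/+-IR mice against 305, 157 and 200 in Lgmn-/--IR, whereas Lyz1 had at most 2. Lgmn-/--IR replicate 1 was at the level of the Lgmn+/+-IR libraries and the other 2 Lgmn-/--IR libraries were below all of them. The means were 6.91 ± 0.244 and 4.94 ± 1.77 CPM (SD, n = 3 each), and the difference did not pass the test (log2 fold change -0.49, 95% interval -1.08 to 0.11, adjusted p = 0.357 in edgeR). Without Lgmn-/--IR replicate 1 the log2 fold change was -0.80 (adjusted p = 0.112), and without replicate 2 it was -0.27 (adjusted p = 0.479). Summed with Lyz1 it was -0.49.

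Ptprc, whose phosphatase opens antigen receptor signalling by activating Src-family kinases, is on chromosome 1 (138062861 to 138175708, minus strand). It had 47, 50 and 59 counts among Lgmn+/+-IR mice against 86, 70 and 43 in Lgmn-/--IR. The highest and the lowest library were both Lgmn-/--IR, and the groups overlapped. The means were 1.19 ± 0.0996 and 1.47 ± 0.479 CPM (SD, n = 3 each), with a log2 fold change of 0.31 (95% interval -0.37 to 0.99, adjusted p = 0.614 in edgeR). Without Lgmn-/--IR replicate 1 the log2 fold change was 0.07, and without replicate 3 it was 0.53 (adjusted p = 0.933 and 0.421).

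Per transcript length, Ptprc was low beside microglial genes, with a mean of 0.208 FPKM against 32.5 for C1qa and 11.3 for P2ry12. None of the 14 microglial genes passed the test, and 12 of their 14 fold changes were below 0 (median -0.19 on the log2 scale). The 2 above 0 were Aif1 (0.46) and Sall1 (0.35). Over all 18345 genes tested, 9482 fold changes were below 0 (median -0.01). Of the 18 pan-leukocyte genes, Ptprc among them, none was a DEG, with 11 fold changes above and 7 below 0. Laptm5, a lysosomal protein of blood cells and microglia, was lower at an adjusted p of 0.0341 but with a log2 fold change of -0.48, under the threshold (3.33% of all genes tested had an adjusted p under 0.05 at any fold). Its adjusted p in edgeR was above 0.05 with any 1 library left out, up to 0.154. Among 16 genes of CD45 and T cell receptor proximal signalling, 15 were tested and none passed. The most abundant were the Src-family kinase gene Fyn (31.0 FPKM, log2 fold change 0.35) and the inhibitory kinase gene Csk (11.1 FPKM, 0.30). Next came Blnk (3.36 FPKM, 0.12), an adaptor gene of the B cell receptor that was also put on this list.

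Cd3e (chromosome 9, 44998740 to 45009627, minus strand) had 0 counts in all 6 libraries, which allows a level of up to 3 counts, or 0.0646 to 0.0703 CPM, in a library. The CD3 chain genes Cd3d and Cd247 were at 0 as well, and Cd3g had 2 counts in Lgmn-/--IR replicate 1. Cd8a (chromosome 6, 71373427 to 71379173, plus strand) had 2 counts in Lgmn-/--IR replicate 3 and none elsewhere, and its partner Cd8b1 had 2 in Lgmn+/+-IR replicate 1. Over a genotype, 3 counts correspond to 0.0229 CPM for Lgmn+/+-IR and 0.0223 CPM for Lgmn-/--IR. A difference in these genes was not detectable at this depth.

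On the T cell list of 20 genes the CD3 and CD8 chains were at or near 0, while constant segments of the T cell receptor were counted in every library. Of the list, 10 genes were tested and none passed. The 10 untested genes reached at most 12 counts. Of the 10 tested, 9 had fold changes below 0 (median -0.57 on the log2 scale, against -0.01 over all genes tested). The 1 above 0 was Trac, a constant segment of the T cell receptor alpha chain. Trac had 10, 7 and 8 counts among Lgmn+/+-IR mice against 11, 18 and 21 in Lgmn-/--IR, without overlap. It did not pass the test (log2 fold change 0.95, SE 0.40, adjusted p = 0.266 in edgeR). Trbc2, a constant segment of the T cell receptor beta chain, was the most abundant with 13.7 FPKM and had 856, 430 and 316 counts among Lgmn+/+-IR mice against 259, 533 and 420 in Lgmn-/--IR. Its groups overlapped (log2 fold change -0.46, adjusted p = 0.596 in edgeR). Lck, the kinase that binds CD4 and CD8, had between 47 and 115 counts (log2 fold change -0.20, adjusted p = 0.802). On the list of 12 cytotoxic and natural killer cell genes, Klrk1, Klrd1, Nkg7 and Ifng were at 0, and Eomes was tested. Eomes, also a factor of olfactory bulb neurons, had 486 counts in Lgmn-/--IR replicate 1 and at most 27 elsewhere. Eomes is itself on the olfactory bulb list, so its counts are part of the high olfactory bulb sum of that library.

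Cd4 (chromosome 6, 124864692 to 124888221, minus strand), the co-receptor of helper T cells, was counted in every library although Cd3e was at 0 in all of them. It had 206, 713 and 1227 counts among Lgmn+/+-IR mice against 1042, 89 and 106 in Lgmn-/--IR. The highest library was 13.8 times the lowest in counts, and high and low libraries occurred in both genotypes. The means were 16.2 ± 11.1 and 9.26 ± 12.3 CPM (SD, n = 3 each), and the difference did not pass the test (log2 fold change -0.80, 95% interval -3.17 to 1.57, adjusted p = 0.716 in edgeR). The value rested on single libraries. Without Lgmn-/--IR replicate 1 the log2 fold change was -2.90 (adjusted p = 0.121), without Lgmn+/+-IR replicate 1 it was -1.23, and without Lgmn+/+-IR replicate 3, Lgmn-/--IR replicate 2 or Lgmn-/--IR replicate 3 it was -0.21, -0.32 and -0.35.

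Cd4 varied together with genes of striatal neurons. A list of 8 striatal genes, chosen after values were seen, summed to 463, 1268 and 1978 CPM in Lgmn+/+-IR and to 1933, 406 and 399 CPM in Lgmn-/--IR. The same 3 libraries were high in both, Lgmn+/+-IR replicates 2 and 3 and Lgmn-/--IR replicate 1. Among these genes, the dopamine receptor gene Drd2 had 566, 2276 and 4011 counts among Lgmn+/+-IR mice against 3753, 508 and 481 in Lgmn-/--IR. The adenosine receptor gene Adora2a had 783, 3371 and 6299 counts among Lgmn+/+-IR mice against 4635, 808 and 519 in Lgmn-/--IR.

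Per 1000 counts of the striatal list, Cd4 had 10.4, 13.1 and 13.6 counts among Lgmn+/+-IR mice against 12.1, 4.72 and 6.05 in Lgmn-/--IR, a narrower range than that of Cd4 itself. The genotypes still overlapped, with Lgmn-/--IR replicate 1 among the Lgmn+/+-IR libraries. The part of striatal tissue in the Cd4 values was not tested.

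**Figure D3:**
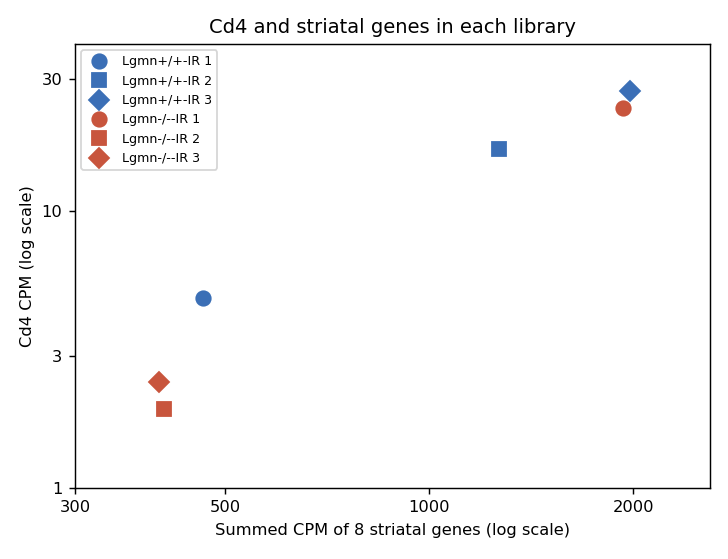
Cd4 (CPM, log scale) against the summed CPM of 8 striatal genes (log scale), 1 point per library, blue for Lgmn+/+-IR and red for Lgmn-/--IR. Lgmn+/+-IR replicates 2 and 3 and Lgmn-/--IR replicate 1 are high on both axes (striatal sum 1268 to 1978 CPM) and the other 3 libraries are low on both (399 to 463 CPM).

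Ms4a1 (chromosome 19, 11249675 to 11266241, minus strand) had no count in any library. Of the 12 B cell genes listed, 4 were tested and 1, Ighm, was a DEG, against 2.06% of all genes tested. Of these 4 fold changes, 3 were above 0 and 1 below (median 0.91 on the log2 scale). Cd79a, a signalling chain of the B cell receptor, had between 14 and 33 counts (log2 fold change 0.13, adjusted p = 0.891). Ighm, the immunoglobulin mu heavy chain, had 821, 441 and 522 counts among Lgmn+/+-IR mice against 1568, 2040 and 2294 in Lgmn-/--IR. Its groups did not overlap (log2 fold change 1.68, SE 0.26, adjusted p = 0.0195 in edgeR). The adjusted p of Ighm was 0.0803 without Lgmn+/+-IR replicate 2, 0.0836 without Lgmn+/+-IR replicate 3, and 0.0553 and 0.0748 without Lgmn-/--IR replicates 2 and 3. The light chain gene Igkc had 5, 11 and 0 counts among Lgmn+/+-IR mice against 66, 12 and 17 in Lgmn-/--IR (log2 fold change 2.50, SE 1.01, adjusted p = 0.251).

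S100a8 and S100a9 encode the paired subunits of calprotectin, a major cytosolic protein of neutrophils, and lie close together on chromosome 3 (90668978 to 90670035, plus strand, and 90692632 to 90695721, minus strand). S100a8 had 0, 0 and 7 counts among Lgmn+/+-IR mice against 23, 2 and 0 in Lgmn-/--IR. S100a9 had 2, 0 and 2 counts among Lgmn+/+-IR mice against 32, 0 and 0 in Lgmn-/--IR. Lgmn-/--IR replicate 1 held 71.9% of the S100a8 and 88.9% of the S100a9 counts, while the other libraries of both genotypes were at or near the limit of 3 counts, with 7 at most.

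Both genes were below the filter on low counts. Summed over the libraries of a genotype, S100a8 was 3.47 times as high in Lgmn-/--IR (25 against 7 counts, exact 95% interval of the ratio 1.46 to 9.51) and S100a9 7.78 times (32 against 4 counts, interval 2.76 to 30.3). These intervals cover counting error only and not the spread between mice. Without Lgmn-/--IR replicate 1 the ratio of S100a8 was 0.414 and S100a9 had no count left in Lgmn-/--IR. A two-sided exact permutation test over the 6 libraries gave p = 0.70 for S100a8 and p = 1.0 for S100a9, where 0.10 is the smallest p that 3 libraries against 3 allow.

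Of 14 listed neutrophil genes, 12 were untested. The 8 of these with more than 3 counts in some library, S100a8 and S100a9 among them, had their highest CPM in Lgmn-/--IR replicate 1. S100a9, Retnlg, Ngp, Ltf and Cxcr2 exceeded 3 counts only there, so that their highest library was set by this limit. Camp had 4 counts there and 4 in Lgmn-/--IR replicate 2. How many genes of low count over the whole table were highest in that library was not counted. Lcn2, the siderophore-binding lipocalin of neutrophil granules, which reactive astrocytes and endothelium also make, had 157 counts there and between 4 and 13 elsewhere. The granule genes Ngp and Ltf and the resistin-like gene Retnlg, named after their values were seen, had 12, 8 and 10 counts there and at most 2 elsewhere. Ly6g and Elane, also on the list, were at 0 in every library. The tested genes Csf3r and Mmp9, which other brain cells can transcribe, had their highest CPM in Lgmn-/--IR replicate 3, with log2 fold changes of 0.32 and 0.19, and did not pass the test.

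**Figure D4:**
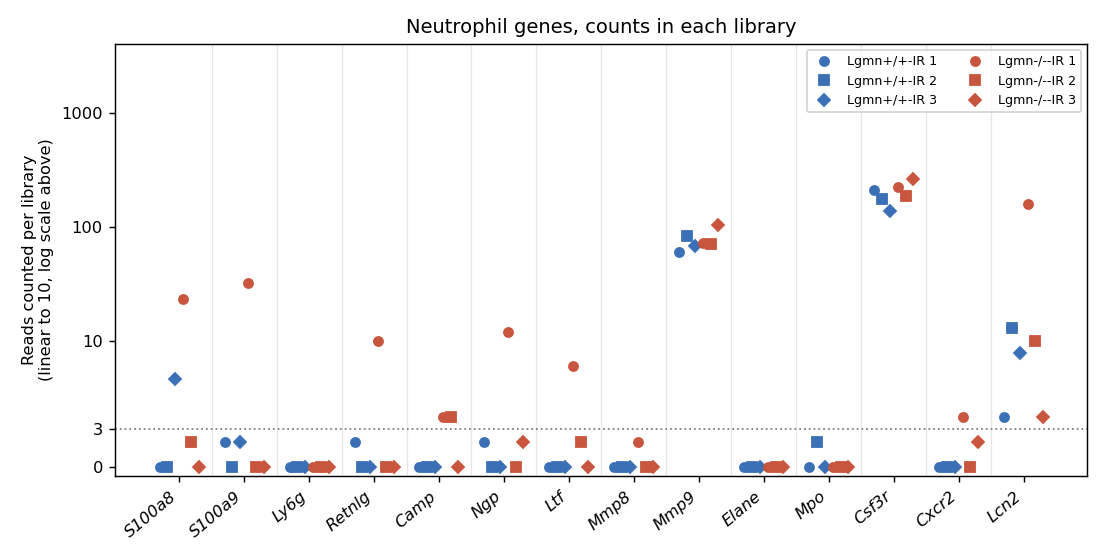
Reads counted on 14 neutrophil genes (y axis, linear up to 10 counts and logarithmic above) in each library, blue for Lgmn+/+-IR and red for Lgmn-/--IR, with a dotted line at 3 counts. The red circles of Lgmn-/--IR replicate 1 stand above the other libraries for S100a8, S100a9, Retnlg, Ngp, Ltf and Lcn2 (157 counts), whereas Ly6g and Elane are at 0 throughout.

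Genes of blood and vessels were set beside the calprotectin genes. The red blood cell list summed to between 209 and 352 CPM in Lgmn+/+-IR and to 2626, 2082 and 491 CPM in Lgmn-/--IR. Of its 7 tested genes 5 were DEGs, all higher, against 2.06% of all genes tested. The 10 listed genes included Hba-a1 of hemoglobin, with 144, 88 and 213 counts among Lgmn+/+-IR mice against 39579, 30214 and 3977 in Lgmn-/--IR (log2 fold change 7.33, adjusted p = 0.00877 in edgeR, and 0.0530 without Lgmn+/+-IR replicate 2). Of the 15 alternative fits described below, Hba-a1 was a DEG in 13, Hba-a2 in 12, Hbb-bs in 11, Hbb-bt in 10 and Alas2 in 7. Lgmn-/--IR replicate 2, with hemoglobin close to that of replicate 1, had 2 S100a8 and 0 S100a9 counts. The endothelial selectin genes Sele and Selp, which slow passing leukocytes and were named after their values were seen, had 26 and 21 counts in Lgmn-/--IR replicate 1 and at most 4 elsewhere. The part of blood in the vessels in any of these values was not tested.

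Genes that work with calprotectin or lysozyme, or belong to the same families, were taken as a further list. Of its 11 genes, 8 were tested and none passed (median -0.41 on the log2 scale, against -0.01 over all genes tested). S100a10, S100a6 and S100a11, the most abundant, had log2 fold changes of 0.33, -0.55 and -0.01. Of 18 genes for leukocyte traffic, 9 were tested and none passed, with 7 fold changes above 0 and 2 below (median 0.45). Over all 18345 genes tested, 8863 fold changes were above 0. Selplg, the ligand of P-selectin, was at a log2 fold change of 0.58 (adjusted p = 0.0944 in edgeR) and the endothelial adhesion gene Vcam1 at 0.52 (adjusted p = 0.0995). Cxcl12, a chemokine of vessels and meninges, had 4373 counts in Lgmn-/--IR replicate 1 and between 1446 and 2288 elsewhere. Of 10 genes of border-associated macrophages, 8 were tested and none passed, with 5 fold changes above 0 and 3 below (median 0.20). The most abundant were Stab1 (2.75 FPKM, log2 fold change -0.25), Pf4 (0.983 FPKM, 0.31) and Cbr2 (0.842 FPKM, 0.45). None of the 5 platelet genes tested passed, with 2 fold changes above 0 and 3 below (median -0.05). The most abundant were Gp1bb (17.4 FPKM, log2 fold change -0.48) and Itga2b (1.68 FPKM, -0.05). Treml1 and Gp9, named after their values were seen, did not overlap between genotypes. Treml1 had 25, 18 and 22 counts among Lgmn+/+-IR mice against 4, 0 and 0 (log2 fold change -3.94, adjusted p = 0.0577 in edgeR). Gp9 was at 1.63 (adjusted p = 0.195).

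**Figure D5:**
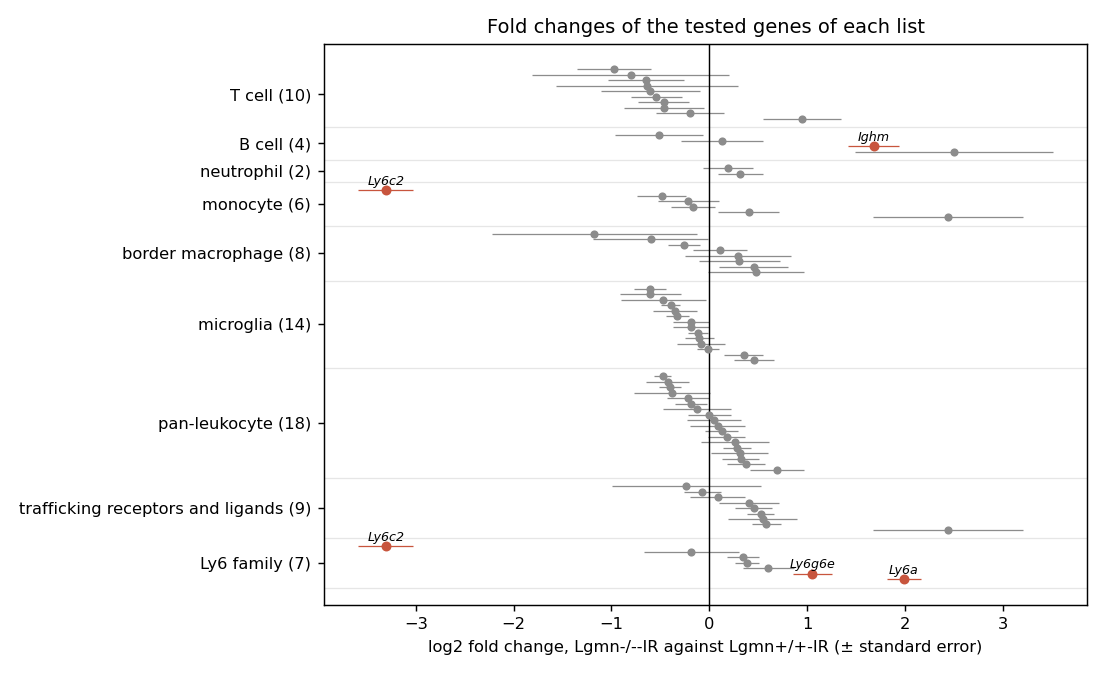
Log2 fold change of Lgmn-/--IR against Lgmn+/+-IR with its SE (x axis) for the tested genes of 9 lists (number tested in brackets), 1 point per gene, ordered by fold change within a list. Red points are DEGs (Ighm, Ly6c2, Ly6a and Ly6g6e, with Ly6c2 on 2 lists), and the remaining points are gray.

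By Pearson's r of log2 CPM over the 6 libraries, a description of shape with no test, the genes most like Cd4 were Grap2, Nexn and Cpn1 (r = 0.997, 0.995 and 0.994). Those most like Ly6c2 were Rplp0-ps1, Wnt3 and 4930426L09Rik (r = 0.995, 0.994 and 0.993). Those most like Ptprc were Csnk2a1, Rec114 and Gm14830 (r = 0.989, 0.980 and 0.976), and those most like Lyz2 were Gm43455, Fam198b and CN725425 (r = 0.992, 0.988 and 0.984). For Ly6c2 the libraries form 2 separate clusters by genotype, and for Cd4 the 3 high and the 3 low libraries do, so that r there mostly restates which libraries were high. With 6 points, 244 of the genes tested had an r over 0.95 with Ly6c2, 106 with Cd4, 47 with Lyz2 and 18 with Ptprc.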

How the data were processed

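The material was cortical RNA from 6 mice, 3 of each genotype. Per the study's methods, the authors used Trimmomatic 0.36 for trimming, HISAT2 2.0 for mapping and StringTie 1.3.3b for expression values. The submitters' processing notes name GRCm38. The authors deposited raw read counts per gene and FPKM. Whether StringTie also made the raw counts, and the annotation and strand setting, are not given in the sources used here. Counts were tested with edgeR 4.0.16 in R 4.3.3 (TMM, filterByExpr, quasi-likelihood F-test on genotype, Benjamini-Hochberg adjustment). The DEG thresholds are those of the study's methods, which name limma. Standard errors come from the F statistic, and 95% intervals use the t distribution with the degrees of freedom of that test. DESeq2 1.42.0 and limma 3.58.1 served as alternatives, and code was tested on simulated data. Positions and sequences are from GENCODE M21 (GRCm38, 51633 of 51826 gene IDs found), with APPRIS principal transcripts. FPKM served for levels between genes. Libraries of a genotype were compared by chi-square and none were duplicates. The p-values measure the spread between these samples.

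The members and lists were chosen with earlier results of these data known. Genes named are Lgmn, the 9 members, Ly6c1 and Lyz1, listed genes with adjusted p under 0.05 (at most 5 a list), the 3 of each list with the highest mean FPKM, and the 3 most like each tested member (log2 of CPM plus 0.5). Others are said to be chosen after their values were seen, or are defining markers or examples of a list. No molecular identifiers are described and PCR copies are not independent, so intervals and limits cover counting error only. Some listed genes are counted within their lists and are not reported here by name.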

Additional observations from a re-analysis of the deposited data

How the results depend on the processing

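Ly6c2 stayed a DEG in all 15 alternative fits (log2 fold change -3.48 to -2.32, largest adjusted p from edgeR, DESeq2 or limma 0.0230), and so did Ly6a (1.69 to 2.09). Counting Ly6c1 and Ly6c2 as 1 gene, chosen after seeing the data, gave 0.10 and left 0 members called in place of 1. Ptprc, Cd4 and Lyz2 kept their sign and did not pass in those 15 fits (Ptprc 0.05 to 0.53, Cd4 -2.90 to -0.21, Lyz2 -0.80 to -0.27 on the log2 scale). Without a filter S100a8 and S100a9 entered the test and did not pass.

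The 377 DEGs over all genes became 593 with DESeq2, 175 with limma on log2(FPKM + 1), 228 with at least 10 counts in every library, and 200 to 326 with 1 library left out. Of the listed genes 9 were DEGs, and 2 to 9 with 1 library left out (5, 2 and 3 without Lgmn+/+-IR replicates 1, 2 and 3). Fewer samples enter those fits. For the other changes the cause was not tested. The replicate number as a block gave 139 DEGs, 2 of them listed genes (Ly6c2 and Ly6a), and raised the adjusted p of Lgmn to 0.113, of Ighm to 0.0981 and of Hba-a1 to 0.0759 from edgeR's quasi-likelihood test. Same-numbered libraries are different mice, their deviations correlated at -0.318, -0.0461 and -0.0557, and 0 of 6 libraries correlated best with their own number. Genes with few counts, as for lymphocytes and neutrophils, are limited by depth.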
